A study of Homo sapiens with 12 samples.

Results

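Transcription factor genes that mark lung mesenchyme were followed through WI-38 cells, a normal human lung fibroblast line, with and without transforming growth factor beta (TGF-β). The 9 genes, TBX2, TBX3, TBX4, TBX5, FOXF1, TCF21, HOXA5, HOXB5 and MEIS1, were taken by gene symbol out of 25702 genes in the table of read counts. RNA was sequenced from 12 flasks in 4 groups of 3. The D1 flasks were untreated and the D1+ TGF-β flasks had received TGF-β for a day, both at passages 2 to 3, whereas the D20 and D20+ TGF-β flasks, at passages 5 to 6, were kept for 20 days without TGF-β or with it. All flasks of the same treatment at D20 were seeded from 1 flask on day 1, so they share a parent culture. In D20+ TGF-β against D20, and in the difference between TGF-β responses at D20 and D1, treatment cannot be told apart from parent flask. In both comparisons between days, time in culture cannot be told apart from passage or from the parent flask of the D20 group. The p-values measure only the spread between flasks of 1 cell line. No gene was edited and no transgene was present.

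The T-box genes TBX2, TBX3, TBX4 and TBX5 encode DNA-binding proteins, lie in linked pairs on their chromosomes and are active in the embryonic lung mesenchyme, where TBX4 and TBX5 are required for lung bud outgrowth and airway branching. FOXF1, a forkhead factor switched on by Hedgehog signals from the epithelium, and TCF21, a basic helix-loop-helix factor, mark fibroblast lineages of lung and other viscera. HOXA5 and HOXB5 give positional identity along the body axis, HOXA5 being needed for normal trachea and lung formation, and MEIS1 is a homeodomain partner of HOX proteins. TGF-β drives fibroblasts towards the contractile, matrix-secreting myofibroblast, so the comparisons ask whether genes of lung mesenchyme identity held their level through that treatment and through long culture.

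The libraries held between 8674488 and 18286197 counts, and 13768 genes were tested. Libraries of the same group differed by 1.58 to 4.24 in chi-square per gene, except that D1 flask 2 stood 25.3 to 26.9 from the other D1 flasks (9.83 between those) and D20+ TGF-β flask 3 stood 14.7 to 20.2 from the others of its group. Several, but not all, results that rest on these 2 libraries are given with and without them, an alternative chosen after the data were seen. The fibroblast label was checked against its markers: all 12 fibroblast marker genes were measured, with a summed level of 14250 to 23660 cpm (counts per 1000000 counts, scaled by TMM factors), while KRT5, NKX2-1 and FOXJ1 of the epithelial list, CDH5 of the endothelial list, CD3E, CD3D, LYZ and MS4A1 of the immune list and WT1 of the mesothelial list had no count in any library. The summed epithelial level was 37.4 to 63.5 cpm, the immune 37.6 to 62.7 cpm, the mesothelial 2.02 to 11.5 cpm and that of smooth muscle and pericyte markers 251 to 435 cpm. The endothelial sum ran from 35.0 to 244 cpm and was nearly all TEK. Other members of these lists were present: KRT8 and KRT18 (epithelial), CD14 and CD68 (immune) and CALB2 (mesothelial) were among the genes tested. In all, 4 of 12 epithelial, 2 of 8 endothelial, 2 of 9 immune and 1 of 5 mesothelial genes were tested. Within the fibroblast sum VIM alone averaged 6321 to 7242 cpm by group. Of 10 genes known to respond to TGF-β, 8 were higher in D1+ TGF-β than in D1 and none lower, whereas in D20+ TGF-β against D20 3 were higher and 1 was lower.

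RefSeq holds promoter entries here for 4 of the 9 genes: TBX4, TBX5, TCF21 and MEIS1. Shown are the 250 bases before the start of TBX5, at its outer start site, and of TCF21, because both genes fell after 1 day of TGF-β and both were higher in D20+ TGF-β than in D1+ TGF-β. Coordinates are on GRCh38.p14, and the sequence runs 5′ to 3′ on the strand of the gene, with each CAGAC or its reverse complement GTCTG in capitals. These letters are those of the box that SMAD proteins, which carry the TGF-β signal to DNA, are known to bind. TBX5, chr12:114408443-114408692, minus strand, and TCF21, chr6:133888863-133889112, plus strand:
TBX5: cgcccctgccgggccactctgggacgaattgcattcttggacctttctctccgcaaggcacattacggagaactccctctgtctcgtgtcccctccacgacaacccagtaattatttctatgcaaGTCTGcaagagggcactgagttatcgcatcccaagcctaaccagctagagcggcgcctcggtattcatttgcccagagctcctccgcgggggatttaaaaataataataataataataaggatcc
TCF21: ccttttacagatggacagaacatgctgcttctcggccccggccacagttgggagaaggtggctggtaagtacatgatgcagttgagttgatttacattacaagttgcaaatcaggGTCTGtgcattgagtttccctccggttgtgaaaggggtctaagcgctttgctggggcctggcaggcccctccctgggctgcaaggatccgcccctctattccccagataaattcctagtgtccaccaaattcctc
Each held the CAGAC letters 1 time, at 125 bases before the start in TBX5 and 135 bases in TCF21. Of 35116 promoters of this length 38.0% hold them, on either strand, so a match is common and is a description of the letters only. TCF21 also held 1 GC box, GGGCGG, which 42.6% of promoters hold. Neither held CCAAT (32.0% of promoters) or TATAAA (10.7%). TBX5 had 13 CpG dinucleotides and 51.2% G and C, TCF21 5 and 52.8%, beside medians of 11 and 58.0% over all promoters.

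FOXF1 had the highest level per kilobase of exon, 62.9 cpm per kb averaged over 12 libraries, followed by TBX2 with 29.6, HOXB5 with 25.9, TCF21 with 24.6 and TBX3 with 15.7 cpm per kb. TBX5 and HOXA5 lay close together at 9.75 and 9.41 cpm per kb, and MEIS1, whose exons span 10.9 kb, stood at 3.85. TBX4 was almost silent at 0.055 cpm per kb. On GRCh37 TBX4 lies on chromosome 17 from 59529765 to 59562471, only 42.9 kb beyond its partner TBX2 on the same strand, yet its 12 libraries held 34 counts in all, from 0 to 7 a library, where TBX2 had 28054. In the 3 libraries with no TBX4 count, a count of 0 allows up to 0.17, 0.303 and 0.344 cpm, counting error only. TBX4 counts by flask were 3, 7 and 7 in D1, 0, 3 and 1 in D1+ TGF-β, 4, 4 and 3 in D20, and 0, 0 and 2 in D20+ TGF-β. The gene missed the filter on low counts and was not tested, so all counts of changed genes below are out of 8.

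**Figure D1:**
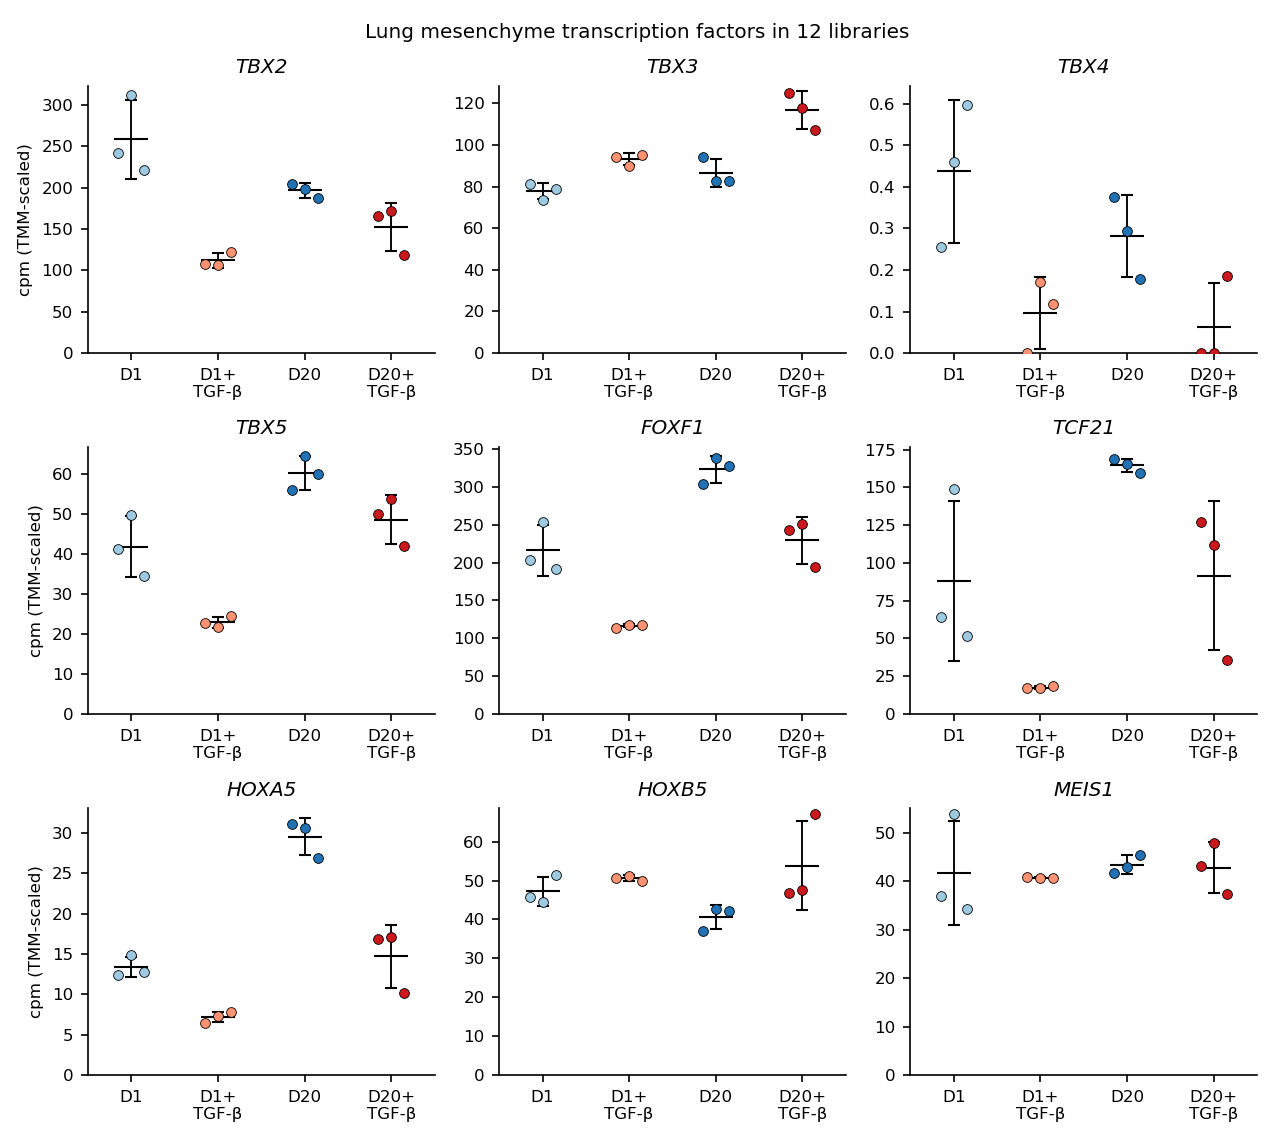
Level of each of the 9 factors, in TMM-scaled cpm on a linear axis from 0 with its own scale, for the 3 flasks (points) of each of 4 conditions, with the mean and SD as bar and whiskers. TBX2, TBX5, FOXF1, TCF21 and HOXA5 sit lower in all 3 D1+ TGF-β flasks than in all 3 D1 flasks, MEIS1 averages 42.1 cpm over the libraries, and TBX4 never exceeds 0.598 cpm.

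In D1+ TGF-β against D1, which asks what a day of TGF-β did, 5 of the 8 tested factors fell and none rose at an adjusted p under 0.01, where 5.24% of all tested genes were called lower, 5.67% higher and 10.9% were called in either direction. The median log2 fold change of the 8 was −0.89, against −0.02 over all tested genes. In 6 of the 8 the flasks of the conditions did not overlap, which held for 33.5% of all genes.

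TCF21 fell furthest. Its level was 64.2, 149 and 51.7 cpm in the D1 flasks and 17.1, 17.2 and 18.4 cpm in the D1+ TGF-β flasks. The treated flasks lay close together, and D1 flask 2 stood far above the other untreated flasks. The fitted fall was 5.07-fold (log2 −2.34 ± 0.43 SE, adjusted p = 0.0014, edgeR quasi-likelihood test, Benjamini-Hochberg over 13768 genes). Without D1 flask 2 it was −1.73 on the log2 scale (adjusted p = 0.0027), and without D1+ TGF-β flask 2 the adjusted p was 0.012. D1 flask 2 also had the highest summed level of 15 proliferation genes among the D1 flasks, 1717 cpm against 1197 and 1428, and the part of this in the result was not tested. In a culture, fewer cells that express a gene and less of its RNA per cell cannot be told apart.

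TBX2, at 242, 313 and 222 cpm in D1, stood at 108, 107 and 123 cpm in D1+ TGF-β. No treated flask reached an untreated one, and the fall was 2.31-fold (log2 −1.21 ± 0.14 SE, adjusted p = 3.0e-05). TBX5 went from 41.2, 49.7 and 34.4 cpm to 22.6, 21.6 and 24.4 cpm, a log2 change of −0.88 ± 0.13 (adjusted p = 0.00025). FOXF1 went from 204, 254 and 191 cpm to 114, 117 and 118 cpm, a log2 change of −0.89 ± 0.11 (adjusted p = 7.0e-05). These were falls of 1.84-fold for TBX5 and 1.86-fold for FOXF1, and D1 flask 2 was the highest D1 flask for each of TBX2, TBX5 and FOXF1. Without it their log2 changes were −1.05, −0.74 and −0.76, all still called.

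HOXA5 was read at a lower depth, with 55 to 128 counts in the D1+ TGF-β libraries. Its level was 12.4, 14.8 and 12.8 cpm in D1 and 6.47, 7.25 and 7.82 cpm in D1+ TGF-β. The groups did not overlap, and the log2 change was −0.90 ± 0.18 (adjusted p = 0.0024). The call was lost without D1+ TGF-β flask 1 (adjusted p = 0.015) or flask 2 (0.017).

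The 3 factors that were not called at day 1 were TBX3, HOXB5 and MEIS1. TBX3, the linked partner of TBX5 and most often a repressor, was at 73.6 to 81.5 cpm in D1 and 89.9 to 95.4 cpm in D1+ TGF-β, with a log2 difference of 0.26 ± 0.08 (adjusted p = 0.035). HOXB5 was at 44.4 to 51.3 cpm and 49.9 to 51.3 cpm (log2 difference 0.10 ± 0.12, adjusted p = 0.6). MEIS1 was at 36.9, 54.0 and 34.2 cpm in D1 and 41.0, 40.7 and 40.6 cpm in D1+ TGF-β (log2 difference −0.04 ± 0.14, adjusted p = 0.88), and without D1 flask 2, its highest, the difference was 0.19 with an adjusted p of 0.15.

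**Figure D2:**
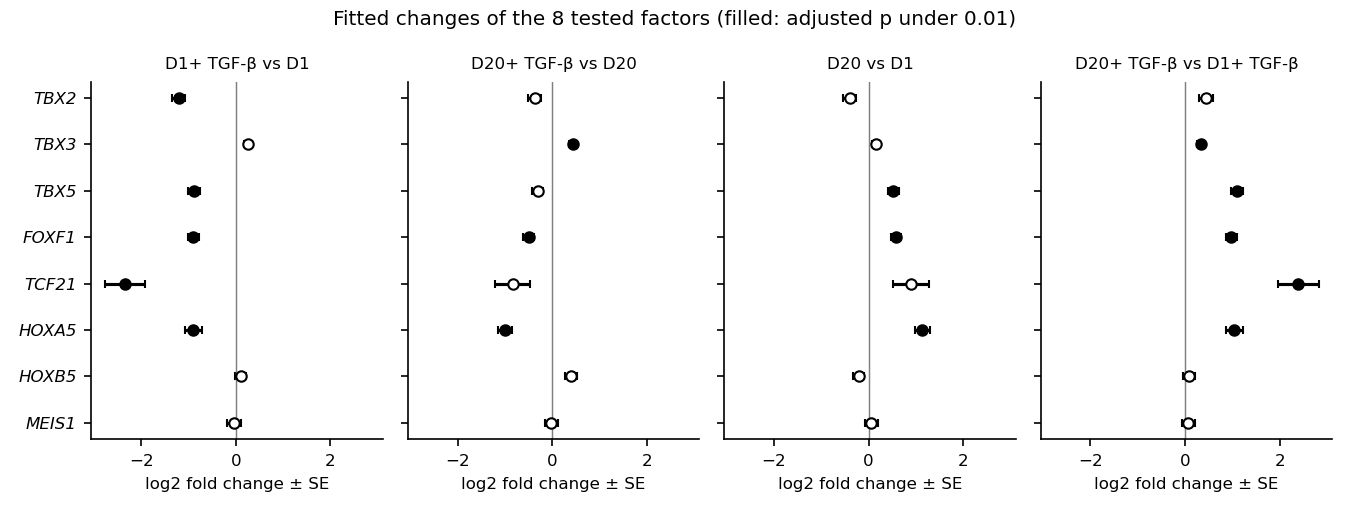
Fitted log2 fold change (horizontal axis, with its SE as whiskers) of the 8 tested factors in the 4 comparisons, filled points being called at an adjusted p under 0.01. TCF21, TBX2, TBX5, FOXF1 and HOXA5 lie left of 0 after 1 day of TGF-β, and HOXA5 and FOXF1 are still called lower in D20+ TGF-β against D20, where TBX3 is called higher.

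In D20+ TGF-β against D20, where prolonged treatment and parent flask cannot be told apart, 2 of the 8 factors fell and 1 rose. Of all tested genes 13.1% were called lower, 11.3% higher and 24.4% either way. The median log2 fold change of the 8 was −0.34 (0.01 over all genes), and in 7 of 8 the flasks did not overlap, as in 53.7% of all genes. HOXA5 fell at day 20 also: its level was 31.1, 30.6 and 26.9 cpm in D20 and 16.9, 17.1 and 10.1 cpm in D20+ TGF-β. The log2 change was −0.995 ± 0.15 (adjusted p = 0.00016) and −0.80 without D20+ TGF-β flask 3, the lowest. The difference between the HOXA5 responses at D20 and D1 was −0.10 ± 0.24 (adjusted p = 0.82).

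FOXF1 was at 304, 339 and 328 cpm in D20 and 243, 251 and 194 cpm in D20+ TGF-β. Every treated flask was below every untreated one, with a log2 change of −0.50 ± 0.11 (adjusted p = 0.0026). The call was lost without D20 flask 2 (adjusted p = 0.016) or flask 3 (0.013) and kept without D20+ TGF-β flask 3, at −0.39 (adjusted p = 0.0092). TBX3 moved the other way, from 94.5, 82.9 and 82.5 cpm to 125, 118 and 107 cpm, a log2 rise of 0.43 ± 0.08 (adjusted p = 0.00061).

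TBX2 (204, 199 and 187 cpm in D20; 166, 172 and 119 cpm in D20+ TGF-β) differed by −0.37 ± 0.14 on the log2 scale (adjusted p = 0.047) and by −0.22 without D20+ TGF-β flask 3, the lowest (adjusted p = 0.17). TBX5 (55.9, 64.5 and 60.0 cpm in D20, and 49.9, 53.7 and 41.9 cpm in D20+ TGF-β) differed by −0.31 ± 0.12 (adjusted p = 0.056). Without D20+ TGF-β flask 3, its lowest, the TBX5 difference was −0.22 (adjusted p = 0.19). Neither was called, although the flasks of the groups did not overlap for these genes. HOXB5 was at 37.1, 42.6 and 42.2 cpm in D20 and 46.7, 47.7 and 67.2 cpm in D20+ TGF-β. Its log2 difference of 0.40 ± 0.12 missed the limit (adjusted p = 0.017), was called with no composition factor (0.0082), with no filter (0.0063), in DESeq2 (0.0082), with lanes as samples (3.9e-06) and without D20+ TGF-β flask 1 (0.0066), and was 0.21 without D20+ TGF-β flask 3, the highest (adjusted p = 0.08). MEIS1 was at 41.6 to 45.5 cpm in D20 and 37.3 to 47.9 cpm in D20+ TGF-β (log2 difference −0.02 ± 0.14, adjusted p = 0.92).

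TCF21 was the gene on which D20+ TGF-β flask 3 bore most. Its level was 169, 166 and 160 cpm in D20 and 127, 112 and 35.6 cpm in D20+ TGF-β. All treated flasks were lower, but flask 3 stood far below its companions, and the log2 difference of −0.83 ± 0.38 was not called (adjusted p = 0.097). Without D20+ TGF-β flask 3 the difference was −0.45 (adjusted p = 0.24), and without both that library and D1 flask 2, which narrows the estimate of the spread, the same −0.45 was called (adjusted p = 5.7e-05). D20+ TGF-β flask 3 also had the highest summed level of proliferation genes of its group, 724 cpm against 491 and 459, and the part of this in the result was not tested.

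The test of the difference between the responses, D20+ TGF-β against D20 minus D1+ TGF-β against D1, called TBX2 alone of the 8, where 8.04% of all tested genes were called, 3.55% with a higher and 4.49% with a lower value. TBX2 fell by 1.21 at day 1 and differed by −0.37 at day 20 on the log2 scale, so its response was 0.84 ± 0.19 smaller in size at day 20 (adjusted p = 0.0088). That call lies near the limit and was lost in 11 of 22 alternatives, among them limma-voom and leaving out any of 9 of the 12 libraries in turn, with adjusted p up to 0.03. For TBX5 the difference was 0.57 ± 0.18 (adjusted p = 0.039), for FOXF1 0.40 ± 0.16 (0.099) and for TCF21 1.51 ± 0.57 (0.083), none called. The TCF21 difference was 1.89 and called without D20+ TGF-β flask 3 (adjusted p = 0.0042) and 0.91 without D1 flask 2 (0.16). Without both of the libraries that stood apart, 4 of the 8 were called: TBX2 at 0.83, TBX5 at 0.52, FOXF1 at 0.37 and TCF21 at 1.28, where 18.4% of all genes tested in that setting were called.

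In D20 against D1, where long untreated culture, passage and parent flask cannot be told apart, 3 of the 8 factors rose and none fell. Of all tested genes 15.9% were called higher, 15.7% lower and 31.6% either way. The median of the 8 was 0.34 (0.01 over all genes), and the flasks did not overlap for 7 of 8, as for 52.3% of all genes. HOXA5 rose 2.2-fold (log2 1.14 ± 0.15, adjusted p = 3.7e-05), all 3 D20 flasks (26.9 to 31.1 cpm) lying above all 3 D1 flasks, whose highest was 14.8 cpm. FOXF1 rose by 0.58 ± 0.11 (adjusted p = 0.00064), from a mean of 216 ± 33.4 cpm (SD, n = 3) to 324 ± 17.9 cpm. TBX5 rose by 0.52 ± 0.12 (adjusted p = 0.0027), from 41.8 ± 7.64 to 60.1 ± 4.3 cpm, a call that was lost without D1 flask 1 (adjusted p = 0.01), D1 flask 3 (0.014) or D20 flask 2 (0.014).

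TCF21 stood at 88.3 ± 52.8 cpm in D1 and 165 ± 4.64 cpm in D20, and its log2 difference of 0.89 ± 0.38 was not called (adjusted p = 0.067). Without D1 flask 2 it was 1.48 and called (adjusted p = 0.0018), and without D20+ TGF-β flask 3, which enters only the shared estimate of the spread, 0.89 was called (0.0096). TBX2 went the other way, by −0.40 ± 0.14 (adjusted p = 0.028), and the size was −0.26 without D1 flask 2 (0.085). It was called lower with no filter (0.0059), with lanes as samples (1.4e-05), without D20+ TGF-β flask 3 (−0.40, 0.0058) and without both libraries (−0.24, 0.0067). TBX3, HOXB5 and MEIS1 had log2 differences of 0.15, −0.21 and 0.05, none called. MEIS1 was at 0.27 without D1 flask 2 (adjusted p = 0.028) and was called, of all alternatives, only without both libraries, at 0.29 (0.005).

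In D20+ TGF-β against D1+ TGF-β, 5 of 8 factors rose and none fell, where 14.6% of all genes were called higher and 30.5% either way. The median was 0.71 (0.01 over all genes), and the flasks did not overlap for 5 of the 8, as for 57.7% of all genes. TCF21 rose 5.26-fold (log2 2.40 ± 0.43, adjusted p = 0.00045) and by 2.77 without D20+ TGF-β flask 3. TBX5 rose by 1.09 ± 0.13 (adjusted p = 1.7e-05), HOXA5 by 1.04 ± 0.18 (0.00029) and FOXF1 by 0.98 ± 0.11 (1.4e-05). TBX3 rose by 0.33 ± 0.08 (0.0039), a call lost without either of D1+ TGF-β flasks 1 and 2 or either of D20+ TGF-β flasks 1 and 2 (adjusted p 0.012 to 0.025). TBX2, at 0.44 ± 0.14, missed the limit (0.018) and was called in 7 alternatives, among them no composition factor (0.0087), no filter (0.0063), DESeq2 (0.0069), without D1 flask 2 (0.0042) and without D20+ TGF-β flask 3 (0.00094). This comparison shares libraries with those above, so its values are not a separate line of evidence.

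The 15 proliferation genes moved with the days: their summed level was 1197 to 1717 cpm in D1, 1337 to 1386 in D1+ TGF-β, 255 to 306 in D20 and 459 to 724 in D20+ TGF-β. All 15 were called lower in D20 than in D1 and in D20+ TGF-β than in D1+ TGF-β, and 10 were called higher in D20+ TGF-β than in D20. Their part in the differences of the factors between days and at day 20 was not tested. In D1+ TGF-β against D1, 1 of the 15 was called lower. TEK moved with the days too, from 45.2 to 78.0 cpm in D1 to 214 to 242 cpm in D20, and its part was not tested either. The summed level of smooth muscle and pericyte markers was 251 to 282 cpm in D20+ TGF-β against 377 to 394 in D20, with 2 of 8 tested called higher and 4 lower, that of mesothelial markers 10.4 to 11.5 against 2.02 to 2.81 cpm, that of epithelial markers 37.4 to 50.5 against 61.3 to 63.5 cpm, and that of immune markers 37.6 to 47.4 against 52.2 to 58.3 cpm. The part of these lists in the differences of the factors was not tested.

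Ordered by level, FOXF1, TBX5 and HOXA5 had the same sequence of means: D1+ TGF-β lowest and D20 highest, with D1 and D20+ TGF-β between. The D1 and D20+ TGF-β flasks overlapped for all 3 of these genes, and those neighbours in the order were not tested. Of the neighbours that were, D1+ TGF-β and D1 differed for all 3, and D20+ TGF-β and D20 for FOXF1 and HOXA5. TCF21 had that sequence also, with D1 (51.7 to 149 cpm) and D20+ TGF-β (35.6 to 127 cpm) overlapping. TBX2 had D1 at the top, and TBX3 had D20+ TGF-β at the top.

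Over the 12 libraries, centred on each gene's mean log2 cpm, the gene nearest to TBX5 among 13767 others was FOXF1, and the gene nearest to FOXF1 was TBX5, at a root mean square distance of 0.087. TBX5 itself varied by 0.53 and FOXF1 by 0.54 on that scale. No other factor had a second factor nearest: the nearest genes were MTSS1L for TBX2 (0.13), XXYLT1 for TBX3 (0.053), DNAH5 for HOXA5 (0.12), METTL5 for HOXB5 (0.076), IRGQ for MEIS1 (0.066) and PCDH18 for TCF21 (0.24). For HOXA5 the nearest factor was FOXF1, at rank 56, and for TBX2 it was FOXF1 at rank 897. These distances are descriptions over libraries that share 4 conditions.

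Genes beside the factors were read from the same libraries. Counts of called genes in the lists below are to be read beside the shares of all tested genes called either way. These were 10.9% in D1+ TGF-β against D1, 24.4% in D20+ TGF-β against D20, 31.6% in D20 against D1 and 30.5% in D20+ TGF-β against D1+ TGF-β. FENDRR, a long noncoding RNA gene transcribed away from FOXF1, starts 1428 bases from it on GRCh37, on the other strand of chromosome 16, where FOXF1 lies from 86544133 to 86549028. FENDRR was at 199, 281 and 186 cpm in D1, 77.9, 66.6 and 83.4 cpm in D1+ TGF-β, 403, 379 and 373 cpm in D20 and 206, 216 and 146 cpm in D20+ TGF-β. No flask of either TGF-β group reached a flask of its untreated group. It was called in all 4 comparisons, with log2 changes of −1.55 ± 0.16 at day 1 (adjusted p = 1.3e-05) and −1.02 ± 0.16 at day 20 (0.00015), and rises of 0.79 ± 0.16 in D20 against D1 (0.00083) and 1.32 ± 0.16 under TGF-β (2.2e-05). The ratio of FENDRR to FOXF1 cpm was 1.02 ± 0.0753 (SD, n = 3) in D1 and 0.652 ± 0.0737 in D1+ TGF-β, and 1.19 ± 0.114 in D20 and 0.821 ± 0.0593 in D20+ TGF-β, with no overlap between treated and untreated flasks at either day.

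FOXF2, the paralog of FOXF1 on another chromosome, fell at both days: it was at 43.7 to 52.0 cpm in D1, 22.7 to 31.0 in D1+ TGF-β, 66.2 to 80.6 in D20 and 39.4 to 41.4 in D20+ TGF-β. Its log2 changes were −0.85 ± 0.11 at day 1 (adjusted p = 0.00011) and −0.88 ± 0.11 at day 20 (1.9e-05). FOXC2, a forkhead gene of vessels and connective tissue that lies 51.4 kb beyond FOXF1, went another way: it fell by 1.87 in D20 against D1 and rose by 1.14 in D20+ TGF-β against D20, at 1.59 to 11.3 cpm.

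TBX5-AS1, the antisense gene whose start lies 311 bases inside the start of TBX5, was at 54.2, 62.7 and 50.4 cpm in D1 and 36.1, 33.2 and 43.0 cpm in D1+ TGF-β. It fell by 0.59 on the log2 scale (adjusted p = 0.0016), a call lost without D1+ TGF-β flask 1 (0.011) or 2 (0.017), and rose by 0.51 in D20 against D1 (0.0011). The kit marks strand, but whether the counting used strand is not stated, so reads where TBX5 and TBX5-AS1 overlap may be shared. All factors except FOXF1 overlap an annotated gene on the other strand, and HOXA5 and HOXB5 also overlap HOXA3 and HOXB3 on the same strand. TBX3, 262 kb from TBX5 and on the same strand, had TGF-β differences of the other sign at both days.

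**Figure D3:**
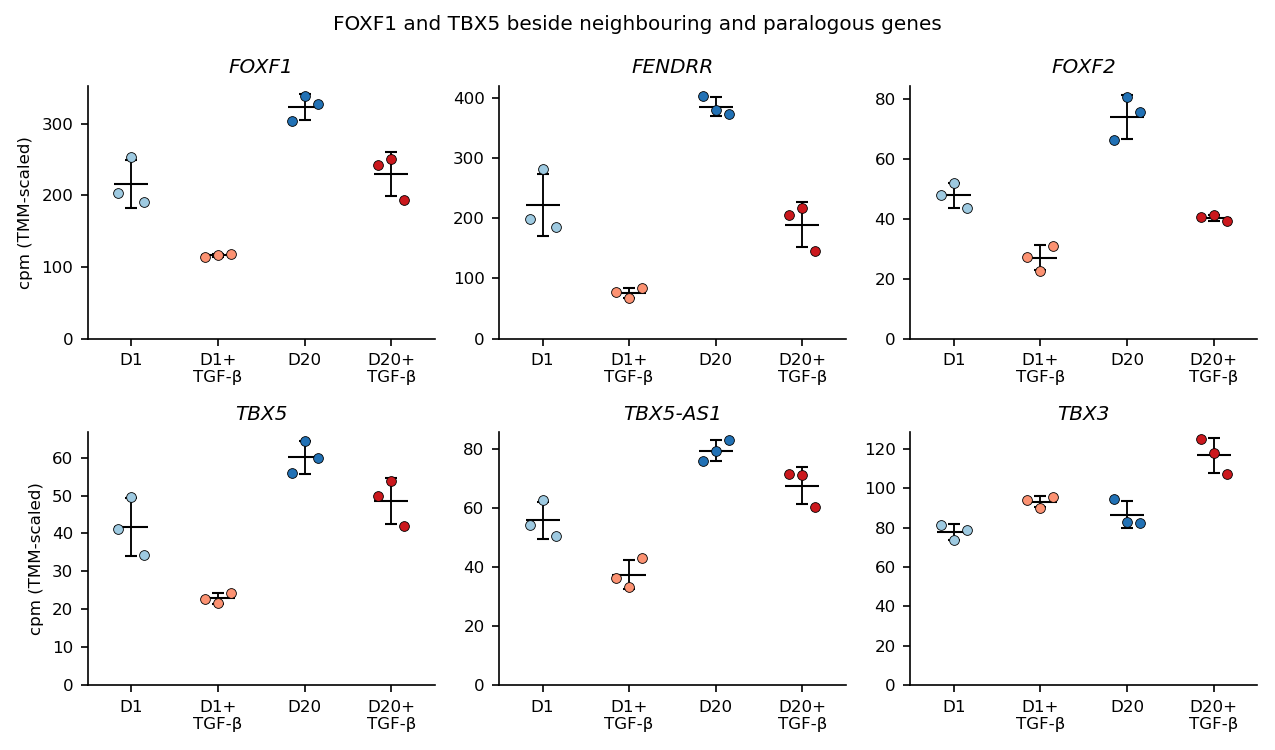
TMM-scaled cpm on a linear axis from 0 for FOXF1, FENDRR, FOXF2, TBX5, TBX5-AS1 and TBX3, with 3 flasks (points), mean and SD per condition. FENDRR and FOXF2 are lower in every TGF-β flask than in the untreated flasks of the same day, and TBX3 is highest in D20+ TGF-β, at 107 to 125 cpm.

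HOXA5 and HOXB5 belong to the paralogous HOXA and HOXB clusters, whose genes are given side by side with no test between clusters. Of 11 HOXA genes 6 were tested, of 10 HOXB genes 7, of 9 HOXC genes 1 and of 9 HOXD genes none, 8 HOXD genes having no count and the 9 together a single count. Expression within the clusters ended at the middle paralogs: HOXA9 and HOXB9 had 18 and 4 counts over 12 libraries. HOXA5 was the highest HOXA gene at 9.41 cpm per kb, the next being HOXA4 at 1.77, and HOXB5 was the highest HOXB gene at 25.9 cpm per kb, the next being HOXB2 at 13.6. The third paralog, HOXC5, had 6 counts.

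In D20 against D1 all 6 tested HOXA genes had a positive log2 fold change (median 0.96) and 4 were called higher, HOXA2, HOXA3, HOXA4 and HOXA5, of which HOXA4 is named after its values were seen. Of all tested genes 15.9% were called higher. HOXA3 and HOXA5 overlap on the same strand, so they may share reads. Of 7 HOXB genes, 3 had a positive value (median −0.21), none was called higher and HOXB6 was called lower, by −0.50 ± 0.08 (adjusted p = 0.00017). HOXA2 rose by 0.80 ± 0.16 (adjusted p = 0.00076) at 2.82 to 5.44 cpm in these flasks, and HOXA3 by 1.03 ± 0.16 (0.00013) at 4.19 to 11.1 cpm. In D1+ TGF-β against D1, HOXA2 and HOXA5 were called lower and no HOXB gene was called. HOXA2 fell by 1.06 ± 0.19 (0.0013), a call lost without D1+ TGF-β flask 2 (0.011) and with only the libraries of the comparison (0.0102). In D20+ TGF-β against D20, HOXA3 and HOXA5 were called lower, and HOXB4 and HOXB6 higher, by 0.58 ± 0.11 (0.00061) and 0.42 ± 0.08 (0.001). The HOXA3 call was lost without any of 5 of the 6 libraries compared (adjusted p 0.011 to 0.018). HOXB6 had a log2 difference of −0.24 ± 0.08 at day 1 (adjusted p = 0.048), and its responses at the 2 days differed by 0.66 ± 0.11 (0.0015).

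**Figure D4:**
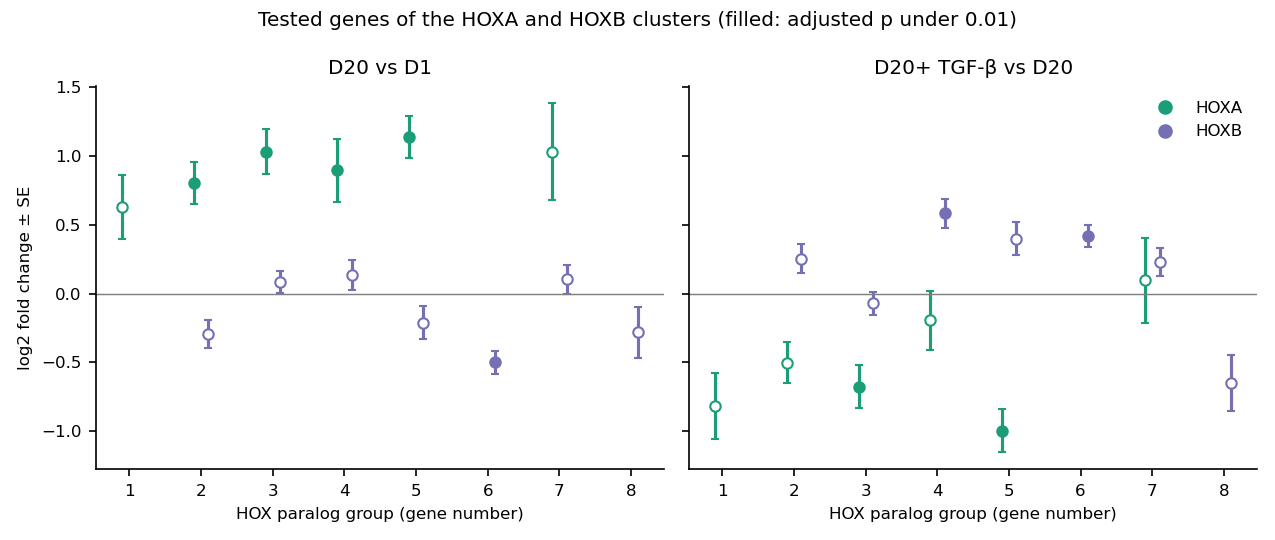
Fitted log2 fold change with SE of the tested HOXA (green) and HOXB (purple) genes by paralog group, in D20 against D1 (left) and D20+ TGF-β against D20 (right), filled points being called at an adjusted p under 0.01. In D20 against D1 the 6 HOXA genes lie between 0.63 and 1.14 and the 7 HOXB genes between −0.50 and 0.13.

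HOXC8 was the single tested HOXC gene, at 0.329 to 0.512 cpm in D1 and 2.43 to 3.14 cpm in D20, and it rose by 2.73 ± 0.29 on the log2 scale (adjusted p = 4.4e-06). Of the noncoding genes in these clusters, HOXA-AS2 rose by 0.81 in D20 against D1 (0.00075) and HOXB-AS3, which overlaps HOXB5 on the other strand, fell by 0.58 in D20+ TGF-β against D20 (0.0013) while HOXB5 itself did not fall. Of 14 noncoding genes listed beside the factors, 9 were in the count table and 6 were tested. They were called lower in 2 cases at day 1 and in 2 at day 20 under TGF-β, and higher in 4 cases in D20 against D1 and 3 in D20+ TGF-β against D1+ TGF-β.

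Of the other T-box genes, MGA, a large T-box protein that also dimerises with MAX, was at 46.1 to 66.1 cpm over the 12 libraries and was not called in any of the 4 comparisons. Its log2 differences were 0.28 ± 0.09 in D1+ TGF-β against D1 (adjusted p = 0.029) and 0.29 ± 0.08 in D20+ TGF-β against D20 (0.015). TBX1, TBX6, TBX15, TBX18, TBX19 and TBX20 reached at most 1.41 cpm in any library, and TBXT, TBX21, TBX22 and EOMES had no count. Of 27 paralogs and partners listed, 15 were tested: 2 were called higher and 1 lower at day 1, 3 higher and 3 lower in D20+ TGF-β against D20, 5 higher and none lower in D20 against D1, and 4 higher and 2 lower in D20+ TGF-β against D1+ TGF-β. TCF4, an E protein with which class II helix-loop-helix factors such as TCF21 form dimers, was at 30.5 to 47.1 cpm in D1 and 90.6 to 95.9 cpm in D1+ TGF-β, and it rose by 1.30 ± 0.12 (adjusted p = 2.8e-06) and by 0.99 ± 0.11 at day 20 (1.0e-05). MSC, the helix-loop-helix repressor closest to TCF21, rose by 1.24 ± 0.15 at day 20 (2.2e-05) and by 0.68 ± 0.16 at day 1 (0.0069), the latter call lost in 11 of 23 alternatives. TCF12, another E protein, rose by 0.37 ± 0.07 at day 20 (0.00074).

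Upstream of FOXF1 lie Hedgehog signals, whose receptor PTCH1 and factor GLI1 are also targets of the pathway. Of 22 genes of this pathway and of other signals made by lung mesenchyme, 17 were tested. At day 1, 4 were called higher and none lower. In D20+ TGF-β against D20 4 were higher and 3 lower, in D20 against D1 10 were higher and 1 lower, and under TGF-β 8 were higher at D20 than at D1 and none lower. BMP4, a growth factor of the distal lung, was at 11.7 to 14.5 cpm in D1 and 105 to 132 cpm in D20, rising by 3.23 ± 0.21 (adjusted p = 7.3e-08), and was lower by 2.05 ± 0.19 on the log2 scale in D20+ TGF-β against D20 (1.8e-06).

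PTCH1 rose by 1.77 ± 0.14 in D20 against D1 (3.5e-07). GLI1 was low throughout, at 0.593 to 1.02 cpm in D1, 2.25 to 2.94 in D1+ TGF-β, 0.147 to 0.188 in D20 and 2.82 to 6.42 in D20+ TGF-β. Its D20 libraries held 2, 2 and 3 counts. It rose by 1.80 ± 0.35 at day 1 (0.0022), lost without D1+ TGF-β flask 2 (0.018), and by 4.61 ± 0.43 at day 20 (1.5e-06). The responses of GLI1 at the 2 days differed by 2.81 ± 0.63 (0.0076), a call lost in 11 of 19 alternatives. GAS1, a Hedgehog co-receptor, rose by 1.55 ± 0.21 at day 20 (5.6e-05). FOXF1 was lower in both TGF-β groups, where GLI1 was higher. PTCH1 was not called in either of these comparisons. Its mean was 7.8 cpm in D1 and 7.9 in D1+ TGF-β, and 26.4 cpm in D20 and 19.3 in D20+ TGF-β. In D20 against D1, where PTCH1 rose, GLI1 fell by 2.13, a call lost in 6 of 19 alternatives.

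Of 24 other mesenchyme transcription factors, 13 were tested. At day 1, 1 was called higher and 5 lower, a median of −0.39. In D20+ TGF-β against D20 4 were higher and 5 lower, in D20 against D1 3 were higher and 3 lower, and in D20+ TGF-β against D1+ TGF-β 4 were higher and 1 lower. PITX1, a homeodomain factor of the hindlimb, was at 113 to 175 cpm in D1 and 46.2 to 61.3 cpm in D1+ TGF-β, a fall of 1.44 ± 0.14 (adjusted p = 4.9e-06), and fell by 1.14 ± 0.13 at day 20 (1.2e-05). PRRX2, a homeodomain factor of connective tissue, fell by 1.96 ± 0.28 at day 1 (0.00022) and 2.10 ± 0.23 at day 20 (6.2e-06). GATA6, a zinc finger factor, rose by 2.98 ± 0.30 at day 1 (8.6e-06) and 1.92 ± 0.29 at day 20 (0.00012), from 0.598 to 1.62 cpm in D1 to 7.81 to 9.71 cpm in D1+ TGF-β.

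**Figure D5:**
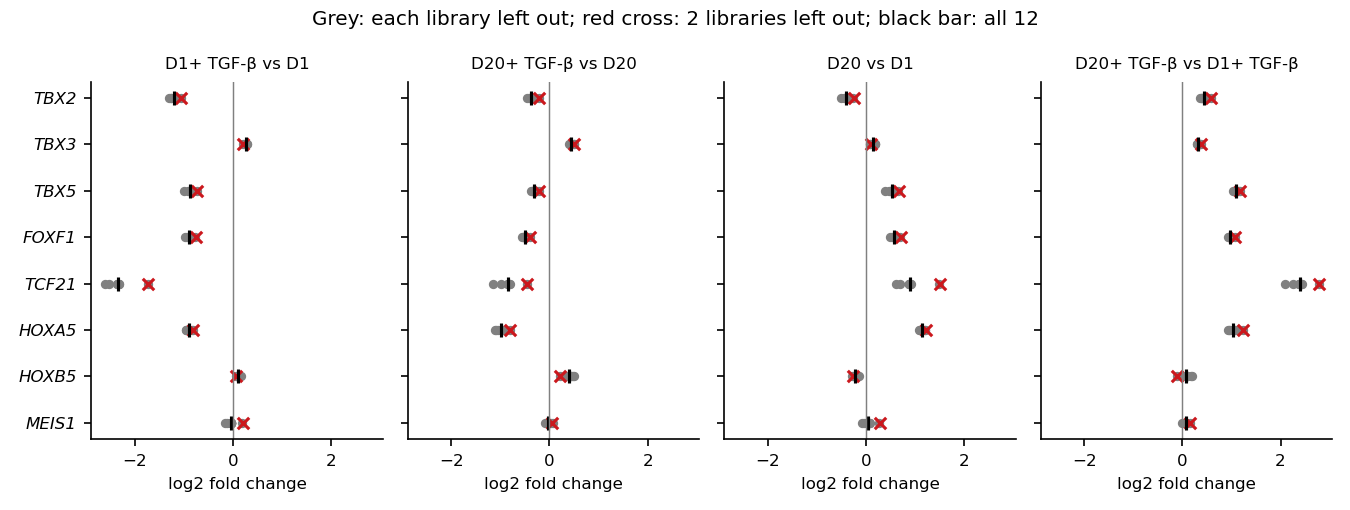
Log2 fold change of the 8 tested factors in 4 comparisons with all 12 libraries (black bar), with each library left out in turn (grey points) and with D1 flask 2 and D20+ TGF-β flask 3 both left out (red cross). TCF21 moves most, from −2.34 to −1.73 in D1+ TGF-β against D1 without both.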

How the data were processed

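Counts came from RNA of WI-38 cells, a directional library kit and paired-end sequencing. The authors trimmed reads with Trimmomatic, mapped them to hg19 with Rsubread and deposited raw counts per gene in 48 columns, 4 lanes for each of 12 libraries, and log2 cpm (counts per 1000000 counts) from voom after a filter on low genes. The counting program, its annotation and its use of strand are not given in the sources used here. Per the labels, FastQC, Trimmomatic and limma were used.

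Here lanes were summed per library and matched to labels by name. Genes passing filterByExpr (minimum count 10), 13768 in all, were fitted with TMM factors by edgeR 4.0.16 (R 4.3.3) in 1 quasi-likelihood model with a mean per group, and called at a Benjamini-Hochberg adjusted p under 0.01. The common biological coefficient of variation was 9.89%. Levels are TMM-scaled cpm, and per kilobase over the union of GENCODE exons on GRCh37. The log2 values served only an alternative, with limma 3.58.1. DESeq2 1.42.0 was another. The steps were tested on simulated data. The 9 genes and all lists were chosen with earlier results of these data known. Besides these genes, each list gives the 4 called genes with the smallest p, and each factor its nearest gene over 12 libraries. Gene names outside the log2 table came from RefSeq by gene ID (14443 matched, 2003 not), and promoters from RefSeq GRCh38.p14. Same-numbered flasks were not paired by any label, and their deviations correlated at −0.11 to 0.30. The limit given for a count of 0 covers counting error only, while SE and SD cover the spread between flasks.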

Additional observations from a re-analysis of the deposited data

Results flagged for a closer look

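TBX2 had a TGF-β response that differed between the days by 0.84 ± 0.19 on the log2 scale (adjusted p = 0.0088, edgeR test of the difference between responses), with a fall of 1.21 at day 1 and a difference of −0.37 at day 20. HOXB6 had responses that differed by 0.66 ± 0.11 (adjusted p = 0.0015), being −0.24 at day 1 and 0.42 at day 20. GLI1 had responses that differed by 2.81 ± 0.63 (adjusted p = 0.0076), with rises of 1.80 at day 1 and 4.61 at day 20. The TBX2 call was lost in 11 of 22 alternatives and the GLI1 call in 11 of 19, whereas the HOXB6 call was kept in all 22. Each D20 library held only 2 to 3 GLI1 counts. Groups of 3 flasks are too small for a test of single outlying values.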

How the results depend on the processing

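Over 23 alternatives, the 8 tested factors kept their direction and their side of the limit in 834 of 912 cases. In 35 a call was gained and in 23 lost, and in 20 a difference that was not called changed sign. With the 48 lanes as samples, each RNA was counted 4 times. In D1+ TGF-β against D1, 3895 genes (41.4% of those tested there) were then called, and 5154 (54.8%) in D20+ TGF-β against D20. In D20 against D1 the number was 5895 (62.6%), and for the difference between responses 3703 (39.3%). Of the 8 factors 6, 7, 6 and 5 were called, in that order. Without both D1 flask 2 and D20+ TGF-β flask 3, 3080 genes (22.1%) and 5 factors were called at day 1. In D20 against D1, 5826 genes (41.7%) and 6 factors were called, and for the difference between responses 2572 genes (18.4%) and 4 factors. limma-voom on the 12 libraries and limma on the deposited log2 values called 0 factors for the difference between responses, where the edgeR fit called TBX2 (adjusted p = 0.012 and 0.016 there).

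Leaving out each library in turn gave 711 to 2108 genes (5.08% to 15.1% of those tested) and 3 to 5 factors called at day 1. In D20+ TGF-β against D20 it gave 2292 to 4150 genes (16.4% to 29.7%) and 2 to 4 factors. In D20+ TGF-β against D1+ TGF-β it gave 2798 to 5056 genes (20% to 36.2%) and 4 to 6 factors. Without both of the libraries above, 5786 genes (41.5%) were called there. In D20 against D1 the ranges were 3052 to 4920 genes (21.9% to 35.2%) and 2 to 5 factors. For the difference between responses they were 597 to 1854 genes (4.27% to 13.3%) and 0 to 2 factors. The lowest counts of genes at day 1 came without D1+ TGF-β flask 2 (711) and flask 1 (858). The cause was not tested.

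Changes of sign fell on values near 0. For MEIS1 the log2 difference at day 1 ran from −0.16 to 0.19 over the single libraries left out and was 0.20 without both. In D20+ TGF-β against D20 it ran from −0.093 to 0.064, was 0.060 without both and 0.024 with no composition factor, and in D20 against D1 it ran from −0.074 to 0.27 and was 0.29 without both. Its difference between responses ran from −0.21 to 0.14 and was −0.14 without both, −0.015 in limma-voom, −0.0085 on the deposited log2 values and −0.0030 with the replicate block. HOXB5 in D20+ TGF-β against D1+ TGF-β ran from −0.10 to 0.20 and was −0.11 without both. The HOXA5 difference between responses ran from −0.21 to 0.10, was 0.014 with no composition factor and 0.018 without both.

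With the replicate number as a block, 1281, 3069, 3916, 4140 and 963 genes were called in D1+ TGF-β against D1, D20+ TGF-β against D20, D20+ TGF-β against D1+ TGF-β, D20 against D1 and the difference between responses, and no call of a factor changed. Same-numbered flasks correlated at −0.11 to 0.30 in their deviations and differently numbered flasks at −0.26 to 0.16. These ranges overlap, so they do not settle whether the numbers pair the flasks. For 56 called results of the other named genes, 1156 of 1210 alternatives kept the call, 54 lost it and none turned the direction. These genes were named for their small p in the same data, and only results called in the main fit were entered. That choice favours keeping a call, so the count is not a separate check. The 10 cpm filter and the deposited log2 values give no value for genes below that filter. HOXA5 had 55 counts in its shallowest library and TBX4 at most 7, which limits what can be said of them.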
